A study of Mus musculus with 4 samples.

Results

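The genes described here are 7 that mark the making of bone: Runx2, Sp7, Alpl, Ibsp, Bglap, Dmp1 and Phex. They were taken by symbol from the 32285 genes of the deposited count tables, and each symbol had 1 entry. They were followed in 4 sections of the injured mouse Achilles tendon, measured on Visium arrays, which capture RNA on a grid of barcoded spots and count RNA molecules by their unique molecular identifiers (UMIs). The sections called F592A 1 and F592A 2 came from TrkA F592A mice given 1NMPP1, and WT 1 and WT 2 from TrkA WT control mice. TrkA is the receptor for nerve growth factor on peripheral nerve fibres. Its kinase becomes open to inhibition by 1NMPP1 through the F592A change, so the comparison concerns tendon healing with TrkA signalling blocked. The mice were 12 weeks old, of both sexes, and all 4 sections were taken 14 days after a punch of 0.5 mm was made in the tendon about 2 mm above its insertion on the heel bone, with buprenorphine given to all mice before surgery. Genotype and drug changed together and cannot be told apart, since whether WT mice got the drug is not stated. Tissue of 4 mice per genotype was pooled and sections are not tied to animals, so every p-value rests on section-to-section spread, which may be technical. Between WT 1 and WT 2 that spread also takes in a difference in sex, given below.

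Bone is laid down by osteoblasts. Runx2 and Sp7 (osterix) are the transcription factors that commit cells to this lineage, Runx2 first and Sp7 after it, and Runx2 also acts in hypertrophic chondrocytes. Alpl, tissue-nonspecific alkaline phosphatase, removes an inhibitor of mineral and is made early. Ibsp (bone sialoprotein) and Bglap (osteocalcin) are matrix proteins of later osteoblasts, and Dmp1 and Phex are used by osteocytes, the cells buried in bone, to control mineral and phosphate. An injured Achilles tendon is known to be a place where cartilage and bone can form out of place, so these genes are commonly read there as a sign of it.

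On the mouse assembly GRCm38.p6, Runx2 lies on chromosome 17 (44495987 to 44814797), Sp7 on chromosome 15 (102356603 to 102367035) and Alpl on chromosome 4 (137741731 to 137796384). Dmp1 and Ibsp are neighbours on chromosome 5 (104197575 to 104214102 and 104299287 to 104311472), Bglap lies on chromosome 3 (88383495 to 88384466) and Phex on chromosome X (157162075 to 157415286). Runx2 overlaps Runx2os3 and Supt3, and Phex overlaps Gm15172, Gm25795 and Gm52451. Whether counting used the strand is not given in the sources used here, so reads of those partners may not be told apart. Bglap2 and Bglap3 are near-identical copies of Bglap on the same chromosome, and how reads were split among them is uncertain.

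The late matrix genes Ibsp and Bglap, textbook targets of RUNX2, are shown by the 250 bases before their start, from RefSeq on GRCm38.p6, because the spots they share with Runx2 are given below. The hexamer ACCACA, on which RUNX proteins are known to bind, was searched on both strands and is in capitals where it was found. The Ibsp window is chr5:104299037-104299286 on the plus strand and the Bglap window chr3:88384467-88384716 on the minus strand.
Ibsp: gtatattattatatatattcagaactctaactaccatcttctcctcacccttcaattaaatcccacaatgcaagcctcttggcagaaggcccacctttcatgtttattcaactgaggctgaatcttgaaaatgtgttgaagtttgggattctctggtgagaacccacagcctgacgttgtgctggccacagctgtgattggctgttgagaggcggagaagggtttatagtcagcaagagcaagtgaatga
Bglap: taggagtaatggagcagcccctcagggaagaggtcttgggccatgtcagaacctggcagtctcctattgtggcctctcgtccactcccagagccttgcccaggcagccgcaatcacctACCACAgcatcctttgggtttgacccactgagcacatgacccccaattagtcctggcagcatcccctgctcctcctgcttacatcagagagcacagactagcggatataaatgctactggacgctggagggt
The Bglap window held 1 match and the Ibsp window held 0. Of 32851 such windows of mouse genes, 14.0% held at least 1, so a match is common and marks no site by itself. RefSeq windows were matched for 6 of the 7 genes, all but Sp7.

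The sections held 30154873 to 43957617 UMIs over 2027 to 3047 tissue spots, and 10649 spots with at least 500 UMIs were kept. Genes of tendon fibroblasts made up 5.50% to 7.34% of the UMIs of each section, fast muscle genes 1.27% to 1.84% and epidermal genes 0.0675% to 0.271%, so each section held tendon, muscle and skin together. The slow muscle list took 0.0695% and 0.0690% of UMIs in F592A 1 and F592A 2, against 0.249% and 0.151% in WT 1 and WT 2, and the regenerating muscle list 0.00249% and 0.00162% against 0.0384% and 0.00997%. WT 2 carried 4207 UMIs of Xist, made from the inactive X chromosome, against 7 to 12 in the other 3 sections. Y-linked genes had 23 UMIs in WT 2, against 7522 to 7918 in the others. The sex of its cells thus differed from theirs, and sex was not balanced between the groups. The part of sex in the values below was not tested. The array barcode positions are reused between slides, and pairs of sections shared 994 to 2429 barcode sequences.

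Runx2 UMIs were found in every section and over wide areas, and those of the other 6 genes were found in fewer spots. Over the 4 sections Runx2 had 2134 UMIs in 1341 spots, Alpl 422 UMIs in 354 spots and Ibsp 777 UMIs in 247 spots. Bglap had 86 UMIs in 78 spots, Dmp1 70 in 62 spots, Phex 61 in 50 spots and Sp7 50 in 41 spots. Of 5 other genes of osteocytes 4 were at or near 0. Sost had 0 to 3 UMIs per section, and Mepe, Fgf23 and Dkk1 had 0 or 1 each, while Pdpn, which is made by other cells too, had 3738 to 6872. Phospho1, a phosphatase of mineralizing cells, had 0 to 6.

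In UMI sums over whole sections none of the 7 genes passed the test between F592A and WT, by the edgeR quasi-likelihood test (Benjamini-Hochberg adjusted over every gene in the fit). All 7 passed the filter on low counts, and 0 of 7 were called at an adjusted p under 0.05, against 0.0795% of the 16347 genes tested. At an unadjusted p under 0.05 the count was also 0 of 7, against 11.8% of all genes. DESeq2 called 0 of 7, against 421 of the 16347 genes, but gave no adjusted p for Sp7 and Phex, so these could not be called. In all 7 the ranges of the groups overlapped, while for 44.2% of all genes they did not.

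**Figure D1:**
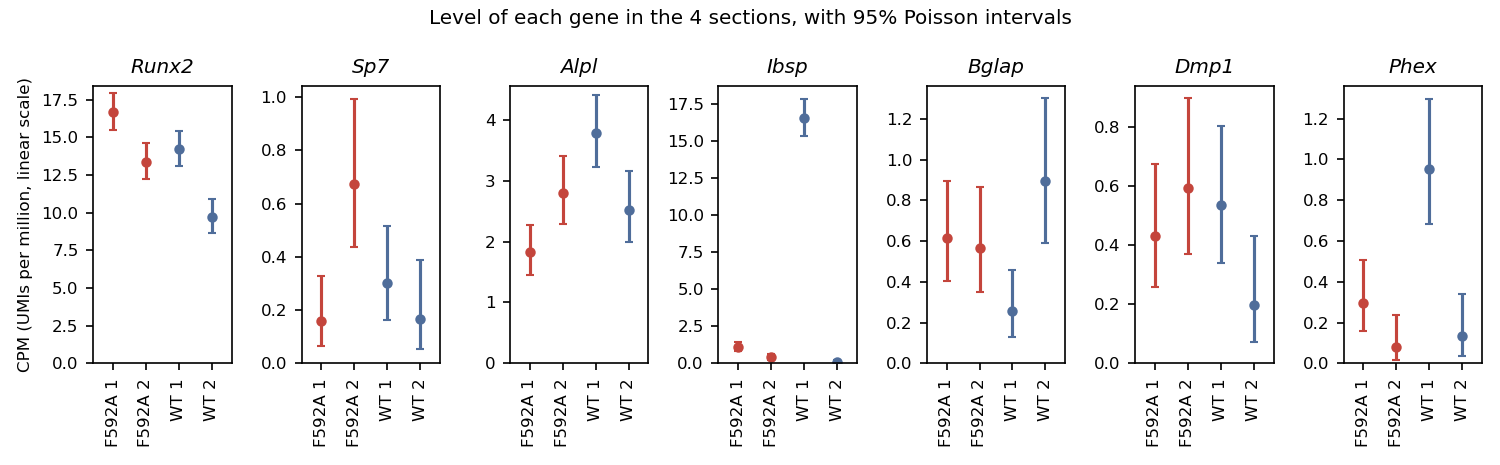
Level of each gene in the 4 sections, as CPM (UMIs per 1000000 UMIs of the section) on a linear axis that differs between panels. Points are sections (F592A red, WT blue) and bars are exact 95% Poisson intervals. WT 1 stands far above the other 3 sections for Ibsp (16.6 CPM against 0.0663 to 1.11) and Phex.

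Runx2, the lineage factor, had 734 and 496 UMIs in F592A 1 and F592A 2, against 611 and 293 in WT 1 and WT 2. With library sizes corrected by TMM factors, these were 16.9 and 13.0 CPM in the F592A sections, against 14.0 and 10.0 in the WT sections. The highest section was F592A 1 and the lowest WT 2, with F592A 2 just under WT 1. The means were 15.0 ± 2.76 CPM in F592A and 12.0 ± 2.83 CPM in WT (SD, n = 2 each), a log2 fold change of 0.31 ± 0.21 (SE) with an edgeR adjusted p of 0.629. Counting intervals without TMM scaling overlapped between F592A 2 (12.2 to 14.6 CPM) and WT 1 (13.1 to 15.4 CPM), but WT 2 at 8.64 to 10.9 lay below all others and F592A 1 at 15.5 to 18.0 above them. These Poisson intervals, like the shares' intervals below, cover counting error only. In such sums less RNA per cell and fewer cells of a type cannot be told apart.

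Sp7, which acts downstream of Runx2, had 7 and 25 UMIs in F592A 1 and F592A 2, against 13 and 5 in WT 1 and WT 2. F592A 2 was the highest section, and F592A 1 lay at the level of WT 2. The log2 fold change was 0.72 ± 0.76 (SE, edgeR adjusted p = 0.767), and without F592A 2 it was -0.57. At such counts a difference of a few UMIs sets the direction.

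Alpl had 80 and 104 UMIs in F592A 1 and F592A 2, against 162 and 76 in WT 1 and WT 2. That is 1.84 and 2.73 TMM-scaled CPM in F592A, against 3.72 and 2.60 CPM in WT. WT 1 was the highest and F592A 1 the lowest, and the other two sections lay side by side. The log2 fold change was -0.48 ± 0.31 (SE), with an edgeR adjusted p of 0.608.

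Ibsp, the sialoprotein of mineralizing matrix, had 49 and 15 UMIs in F592A 1 and F592A 2, against 711 and 2 in WT 1 and WT 2. Both the highest and the lowest section were WT, so the group contrast rested on 1 library. The log2 fold change of all 4 sections was -3.43 ± 1.68 (SE, edgeR adjusted p = 0.501). Without WT 1 it turned to 3.43 (adjusted p = 0.183), and without WT 2 it was -4.39 and was called (adjusted p = 0.00126). Over all alternatives the adjusted p of Ibsp ran between 0.00126 and 0.991.

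Bglap, osteocalcin, had 27 and 21 UMIs in F592A 1 and F592A 2, against 11 and 27 in WT 1 and WT 2. The F592A sections lay between the WT sections, and the log2 fold change was 0.06 ± 0.62 (SE, edgeR adjusted p = 0.980), turning to -0.04 without F592A 1 and to -0.65 without WT 1. Bglap2, the other osteocalcin gene of mouse bone, had 0 and 1 UMI in the F592A sections and 0 in both WT sections. Bglap3, the copy known from kidney and other tissues, had 84 and 110 UMIs in F592A, against 64 and 37 in WT (log2 fold change 0.81 ± 0.31, SE, edgeR adjusted p = 0.401), with both F592A sections above both WT sections, as in 21.7% of all genes. The epidermis list took 0.205% and 0.271% of UMIs in F592A 1 and F592A 2, against 0.196% and 0.0675% in WT 1 and WT 2, the same order of sections, and its part in the Bglap3 values was not tested.

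Dmp1 and Phex, the osteocyte genes, gave few UMIs. Dmp1 had 19 and 22 UMIs in F592A 1 and F592A 2, against 23 and 6 in WT 1 and WT 2, so 3 sections were alike and WT 2 was low. Its log2 fold change was 0.40 ± 0.53 (SE, edgeR adjusted p = 0.816), and -0.06 without WT 2. Phex, an endopeptidase whose loss causes hypophosphatemic rickets, had 13 and 3 UMIs in F592A, against 41 and 4 in WT. WT 1 stood alone, as it did for Ibsp. The log2 fold change of Phex was -1.54 ± 0.97 (SE, edgeR adjusted p = 0.597), and 0.49 without WT 1.

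The sections differ in how much muscle and skin they hold, so the sums were also compared within the 25% of spots of each section with the highest share of UMIs from tendon fibroblast genes, called tendon-rich spots here (709 and 687 spots in F592A 1 and F592A 2, 761 and 506 in WT 1 and WT 2). There 4 of the 7 genes passed the filter on low counts, Runx2, Alpl, Bglap and Dmp1. Of these 0 were called, against 0.0935% of the 14979 genes tested, and only Alpl (1 of 4) had an unadjusted p under 0.05, against 12.7% of all genes. DESeq2 called 0 as well, against 304 of the 14979 genes. The groups did not overlap for Runx2, Alpl and Dmp1, which is 3 of the 4 tested, against 46.2% of all genes.

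Alpl had the smallest p of these 4 genes in tendon-rich spots. It had 27 and 21 UMIs in F592A 1 and F592A 2, against 73 and 34 in WT 1 and WT 2, or 1.09 and 1.10 TMM-scaled CPM against 2.79 and 2.38. Both F592A sections lay below both WT sections, at 1.10 ± 0.00612 CPM on average against 2.59 ± 0.290 CPM (SD, n = 2 each). The log2 fold change was -1.24 ± 0.31 (SE) with an unadjusted p of 0.00682, and the edgeR adjusted p of 0.213 did not pass. The direction held in each of 11 alternatives, between -1.34 and -0.92, with adjusted p between 0.0572 and 0.890. In the same spots the slow muscle list, of which all 7 genes were detected in every section, took 0.0287% and 0.0231% of UMIs in F592A 1 and F592A 2, against 0.0629% and 0.0577% in WT 1 and WT 2. Regenerating muscle genes took 0.000695% and 0.000635%, against 0.0177% and 0.00282%. Endothelial genes took 0.0320% and 0.0305%, against 0.0418% and 0.0317%. Fast muscle genes took 0.336% and 0.372%, against 0.234% and 0.354%, and adipocyte genes 0.00878% and 0.0133%, against 0.00371% and 0.0108%. The lists thus did not all run the same way between the groups. The part of these in the Alpl values was not tested. In sums over whole sections without the 25% of spots richest in muscle genes, Alpl had -0.70 (edgeR adjusted p = 0.520).

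Runx2 in the tendon-rich spots had 480 and 310 UMIs in F592A 1 and F592A 2, against 419 and 137 in WT 1 and WT 2. The scaled values were 19.4 and 16.2 CPM in F592A, against 16.0 and 9.59 CPM in WT. Both F592A sections were higher, but F592A 2 and WT 1 nearly touched, and the log2 fold change of 0.46 ± 0.25 (SE) had an edgeR adjusted p of 0.487. Without WT 1 it was 0.90 and was called (adjusted p = 0.0166), without WT 2 it was 0.16 (adjusted p = 0.702), and over all alternatives the adjusted p ran between 0.0166 and 0.924. In the same spots the neutrophil list, carried by S100a8, S100a9 and Csf3r, took 0.00488% and 0.00445% of UMIs in F592A 1 and F592A 2. In WT 1 and WT 2 it took 0.00339% and 0.00121%. Macrophage genes took 0.154% and 0.152%, against 0.140% and 0.135%, and tenocyte genes 0.448% and 0.435%, against 0.586% and 0.741%. The hypertrophic cartilage list, carried by Mmp13 and Pth1r, took 0.0328% and 0.0132%, against 0.0406% and 0.0403%. Endothelial genes took 0.0320% and 0.0305%, against 0.0418% and 0.0317%, so both of these were lower in the F592A sections. The part of these in the Runx2 values was not tested.

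Dmp1 had 15 and 16 UMIs in the tendon-rich spots of F592A 1 and F592A 2, against 15 and 2 in WT 1 and WT 2, or 0.606 and 0.838 CPM against 0.573 and 0.140 (log2 fold change 0.85 ± 0.63, SE, edgeR adjusted p = 0.620). WT 2 alone was low. Bglap had 13 and 9 UMIs there in F592A, against 8 and 12 in WT, with groups that overlapped (-0.09 ± 0.61, SE, adjusted p = 0.964). The 3 genes that failed the filter were Sp7 with 2 and 10 UMIs in F592A against 6 and 0 in WT, Ibsp with 8 and 2 against 562 and 1, and Phex with 4 and 0 against 22 and 1.

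**Figure D2:**
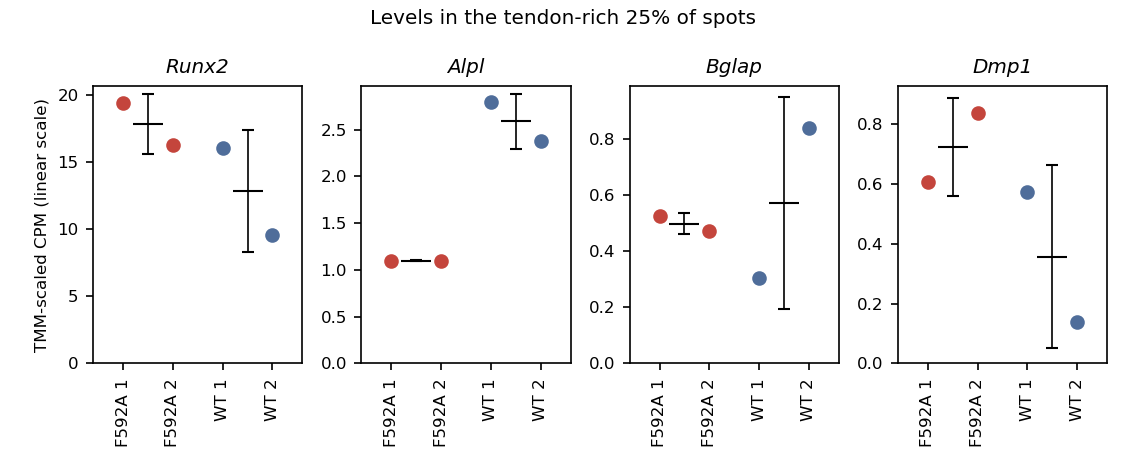
Levels of the 4 genes that could be tested in the tendon-rich spots, as TMM-scaled CPM on a linear axis that differs between panels. Points are sections (F592A red, WT blue), and the black lines are the mean and SD of each group (n = 2). The F592A points of Alpl lie at 1.09 and 1.10 CPM, below both WT points.

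Where the UMIs of each gene lay was read from the 10% of spots in a section with the highest share of UMIs from a list of marker genes, set against the rest of the section. Such spots are called rich in that list below. These values describe each section by itself and carry no test, since spots of a section share 1 library. Runx2 was low in muscle. In spots rich in fast muscle genes it had 2.77 and 0.888 CPM in F592A 1 and F592A 2, where the rest of those sections had 17.3 and 14.2 CPM. In WT 1 and WT 2 these spots had 2.60 and 3.47 CPM and the rest 14.8 and 10.2 CPM. The order was thus the same in all 4 sections, with levels in muscle of 0.0627 to 0.341 of the rest.

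Runx2 was higher where the list of hypertrophic cartilage was high, with 1.89 and 1.80 times the CPM of the rest in F592A 1 and F592A 2, and 1.31 and 1.20 times in WT 1 and WT 2. That list is carried here by Mmp13, a collagenase of wounds as well as of cartilage, with 2622 to 12204 UMIs per section, and by Pth1r with 1859 to 2565. Its defining genes Col10a1 and Ihh had 4 to 12 and 3 to 15 UMIs per section, so the spots cannot be called hypertrophic cartilage. Runx2 in spots rich in the neutrophil list was at 1.40 and 1.77 times the CPM of the rest in F592A 1 and F592A 2. In WT 1 and WT 2 it was at 1.92 and 1.19 times. That list was carried by S100a8 (134 to 516 UMIs per section), S100a9 (156 to 789) and Csf3r (190 to 299). Ly6g had 0 or 1, Retnlg 5 to 16 and Mmp8 4 to 17, so the neutrophil-rich spots cannot be said to hold neutrophils. In tenocyte-rich spots Runx2 was lower than in the rest, with ratios of 0.75 to 0.91.

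A spot with Runx2 usually touched another one. Runx2 was detected in 13.2% and 11.8% of spots in F592A 1 and F592A 2, and in 13.6% and 11.2% in WT 1 and WT 2. Of the positive spots, 78.9% and 77.2% in F592A and 81.2% and 71.4% in WT had a positive neighbour, where 35.7% to 39.5% of all spots did. Depth differs between spots, and thinned to 2000 UMIs per spot the positive share was 2.27% and 2.15% in F592A, against 2.17% and 1.73% in WT. The thinning left out 337 and 58 shallower spots in F592A 1 and F592A 2, and 457 and 287 in WT 1 and WT 2. Among spots rich in fast muscle genes 1.76% and 0.727% were positive in F592A, and 1.64% and 2.96% in WT. The median depth there was 5698 to 10012 UMIs, against 5465 to 7925 over whole sections.

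The patches of Runx2 differed in shape. In F592A 1 the largest connected patch held 180 spots and 472 UMIs, which was 64.3% of the Runx2 UMIs of that section. In F592A 2 it held 88 spots (29.2% of UMIs), in WT 1 113 spots (29.0%) and in WT 2 38 spots (16.4%). The densest window of up to 37 spots, all spots within 3 steps of a centre, was the one with the most UMIs of the gene. It had 35.4 CPM of Runx2 in F592A 1 and 17.9 in F592A 2, against 33.9 in WT 1 and 12.6 in WT 2. Outside the window Runx2 had 14.7 and 12.9 CPM in F592A, and 13.2 and 9.39 in WT. The windows held 9.83% and 8.91% of all UMIs in F592A, and 4.89% and 9.98% in WT. Depth thus enters the choice, and in F592A 2 and WT 2 the window was little above its surroundings. Apart from Runx2, the window of F592A 1 was led by Mmp13 (1416 CPM, against 154 in the rest) and Crabp1, a retinoic acid binding protein. The window of F592A 2 was led by Acan, the large proteoglycan of cartilage (823 CPM against 215), and Col12a1. The window of WT 1 was led by Ptx3 and Hp, both acute phase genes, and that of WT 2 by Slpi, a protease inhibitor, and Prg4, lubricin of gliding surfaces. No gene was among the 10 leading genes of all 4 windows, while Slpi was among those of F592A 1, WT 1 and WT 2. In WT 1 the window overlapped the densest window of Ibsp described below and had 135 CPM of Ibsp against 10.5 in the rest.

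**Figure D3:**
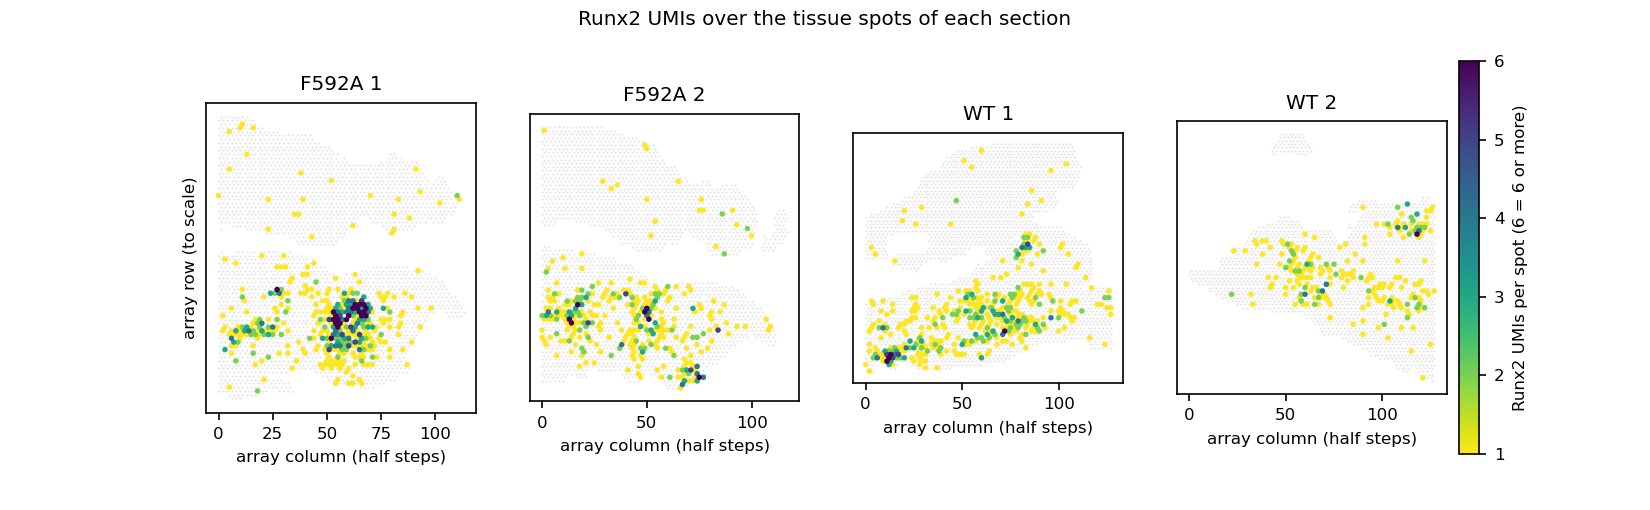
Runx2 UMIs per spot on the array of each section, F592A 1 and F592A 2 at left and WT 1 and WT 2 at right, with tissue spots without a UMI in grey. The block of dark spots in F592A 1 belongs to the connected patch of 180 spots, and the upper piece of tissue in F592A 1, F592A 2 and WT 1 is nearly empty.

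The genes whose pattern over spots was most like that of Runx2 were mostly genes of the extracellular matrix. By the lowest ratio over the 4 sections of the level in Runx2-positive to that in negative spots, after adding 20 CPM, they were Tnn (tenascin-W), Fn1 (fibronectin), P3h1 (a collagen prolyl hydroxylase), Fbln2 (fibulin-2) and Thbs2 (thrombospondin-2). Their ratios were 1.57 to 1.63 for Tnn, 1.50 to 2.02 for Fn1, 1.50 to 1.73 for P3h1, 1.49 to 2.15 for Fbln2 and 1.49 to 2.17 for Thbs2. None of the genes of the bone lists was among these 5.

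Alpl was higher in endothelium-rich spots in all 4 sections. Its ratios to the rest were 1.91 and 1.96 in F592A 1 and F592A 2, and 2.52 and 1.59 in WT 1 and WT 2. Runx2 had ratios of 0.99 and 1.33 there in F592A, and 1.61 and 1.45 in WT. In WT 1 the densest Runx2 window had 13.8 CPM of Alpl, against 3.26 in the rest. The enzyme made by Alpl is known on the endothelium of capillaries as well as on bone. In adipocyte-rich spots Alpl was at 3.00 and 1.48 times the rest in F592A, and 1.12 and 1.55 times in WT. It was also higher in spots rich in slow muscle genes, at 2.08 and 9.44 times in F592A and 2.31 and 2.46 times in WT. F592A 2 had 30 of its 104 Alpl UMIs there. In tenocyte-rich spots Alpl was lower than in the rest, with ratios of 0.83 and 0.37 in F592A and 0.20 and 0.36 in WT.

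The genes most like Alpl over spots in all 4 sections were Mmp13 (ratio 1.47 to 1.77), Penk, a precursor of opioid peptides (1.29 to 1.50), Cldn5, the endothelial tight junction claudin (1.28 to 1.68), Lbp (1.27 to 1.98) and Ace, an endothelial peptidase (1.26 to 1.51). In WT 1 the neutrophil-rich spots held 56 of 162 Alpl UMIs, 3.09 times the level of the rest. That ratio was 1.51 and 0.99 in F592A 1 and F592A 2 and 1.14 in WT 2, so it was not shared. Alpl was detected in 2.43% and 3.20% of spots in F592A and in 4.21% and 3.41% in WT, and in 2.82% to 3.94% of the spots rich in fast muscle genes. Its CPM in those spots was 2.59 and 1.29 times that of the rest in F592A 1 and F592A 2, and 1.71 and 1.64 times in WT 1 and WT 2.

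**Figure D4:**
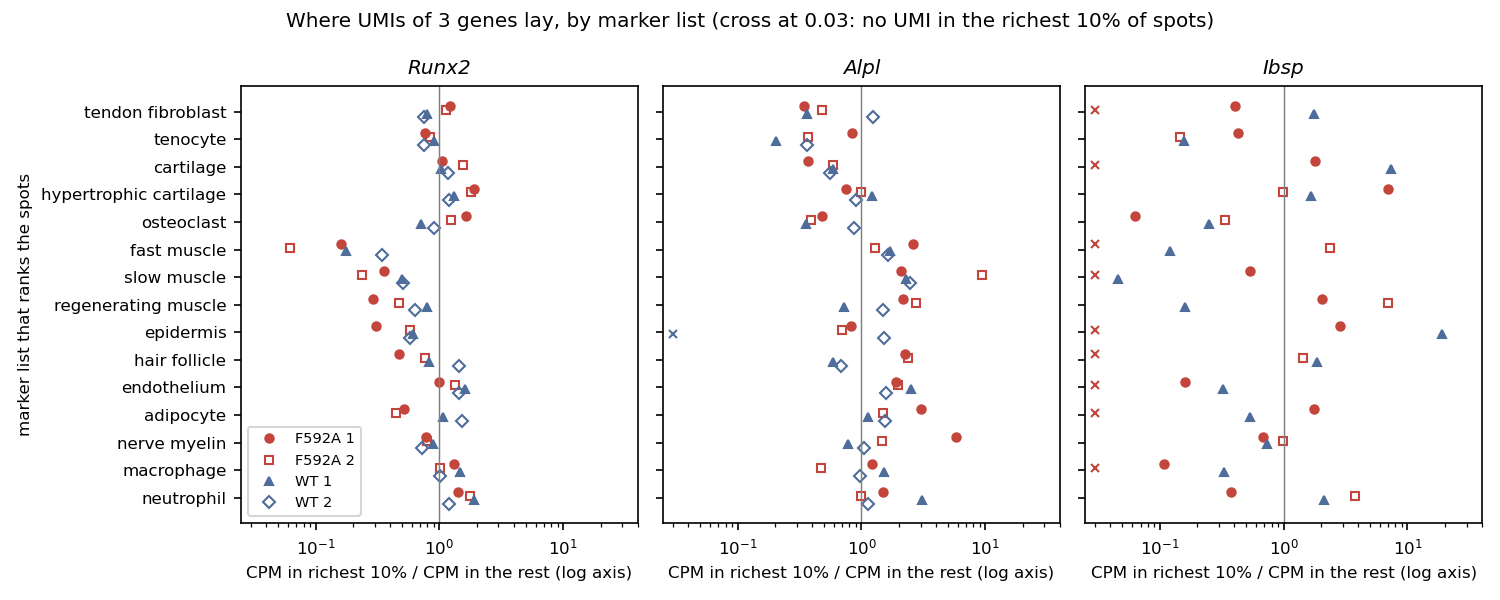
Level of Runx2, Alpl and Ibsp in the 10% of spots richest in each marker list, divided by the level in the rest of the same section (log axis, grey line at 1). Each mark is a section (F592A red, WT blue), crosses stand for no UMI in those spots, and WT 2 is not drawn for Ibsp because it had 2 UMIs. Runx2 lies left of the line for fast muscle, and Alpl right of it for endothelium, in all 4 sections.

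Ibsp was concentrated in a small area of a single section. In WT 1, 1 connected patch of 52 spots held 524 of 711 UMIs (73.7%). The densest window of 37 spots held 482 UMIs, or 504 CPM against 5.46 CPM outside it. A single spot had 112 Ibsp UMIs among 12758, together with 141 UMIs of Spp1, osteopontin, and 0 of Runx2, Sp7, Alpl, Bglap, Dmp1 and Phex. Of the Ibsp UMIs of WT 1, 54.1% (95% Clopper-Pearson interval 50.4 to 57.9%) lay in cartilage-rich spots, which held 13.8% of all UMIs, so the level was 7.38 times the rest. A share of 38.4% (34.8 to 42.1%) lay in epidermis-rich spots, which held 3.16% of all UMIs, so the level was 19.1 times the rest. The cartilage list was carried mostly by Acan (8246 to 12031 UMIs per section) and Sox9 (4060 to 8735). Col11a2 had 777 to 3415, Col2a1 420 to 1267, Cnmd 7 to 16 and Snorc 4 to 16. The spot with 112 Ibsp UMIs had 7 of Acan and 1 of Col2a1. Cartilage-rich spots are thus named by the list and are not shown to be cartilage.

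The genes that led the Ibsp window of WT 1, besides Ibsp, were Clu (749 CPM against 105 outside), Prg4 (891 against 194), Angptl7 (132 against 18.6), Col2a1, the main collagen of cartilage (111 against 17.0), and Ndufa4l2 (284 against 66.3). Chad, chondroadherin of cartilage, had 204 against 47.0 CPM. Among bone genes the window held 0 UMIs of Sp7, Bglap and Dmp1, 1 of Phex, 9 of Alpl and 19 of Runx2, and 0 of Col10a1 and Ihh. The section had 11 to 23 UMIs of Sp7, Bglap and Dmp1 and the window 2.23% of its UMIs, so a count of 0 there says little about these 3. Omd, osteomodulin of bone and tendon, had 65.9 CPM in the window against 12.8 outside. Epidermal genes moved with it: the window held 0.447% of its UMIs from the epidermis list, against 0.191% outside. In sums without the 25% of spots of each section richest in skin genes, the log2 fold change of Ibsp was -1.57 (edgeR adjusted p = 0.689), against -3.43 with them.

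The largest connected Ibsp patch had 3 spots in F592A 1 and 3 in F592A 2. In F592A 1, a spot with 10727 UMIs had 20 of the 49 Ibsp UMIs of the section, with 2 of Sp7, 2 of Alpl and 5 of Dlx6, a homeobox gene of osteoblasts, and 0 of Runx2, Bglap, Dmp1 and Phex. It also had 96 UMIs of Myh1, a fast myosin. The densest window of that section, of 36 spots, held 27 Ibsp UMIs (135 CPM against 0.503 CPM outside), and took 7.24% of their UMIs from fast muscle genes against 1.58% elsewhere. Yet 0 of the 49 Ibsp UMIs of F592A 1 lay in spots rich in fast muscle genes. In spots rich in the hypertrophic cartilage list lay 25 (51.0%), at 7.01 times the CPM of the rest. These lay in 1.76% of the 284 such spots, and the spot with 20 UMIs was among them, so that ratio rests mostly on that spot. In F592A 2 the densest window had 7 of 15 Ibsp UMIs, with 7.33% fast muscle UMIs in the window against 1.83% outside, and 2 of 15 lay in spots rich in fast muscle genes. WT 2 had 2 Ibsp UMIs in all.

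**Figure D5:**
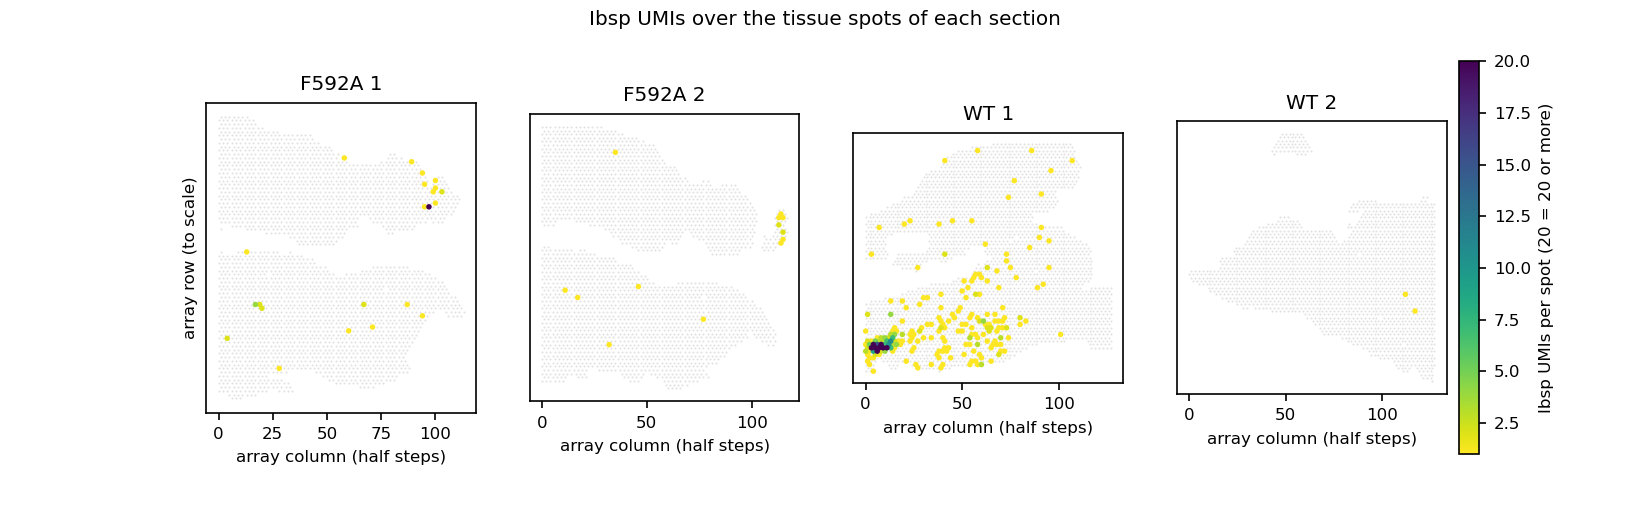
Ibsp UMIs per spot on the array of each section, F592A 1 and F592A 2 at left and WT 1 and WT 2 at right, with tissue spots without a UMI in grey and 20 or more UMIs in the darkest colour. The patch of 52 spots is at the lower left of WT 1, around which single UMIs are scattered, and F592A 1 has 1 dark spot at the upper right.

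Over the 2 sections with at least 20 Ibsp-positive spots, F592A 1 and WT 1, the genes most like Ibsp were Cnp (ratio of positive to negative spots 1.48 to 1.54), Prg4 (1.45 to 3.31), Edil3 (1.40 to 1.42), Ptx3 (1.34 to 1.53) and Nt5dc2 (1.28 to 1.42). Bglap shared Prg4 with it. Over the 3 sections with enough Bglap-positive spots, F592A 1, F592A 2 and WT 2, those most like Bglap were Prg4 (1.87 to 2.67), Prelp, a small proteoglycan of connective tissue (1.71 to 2.13), Fbln7 (1.60 to 2.01), Lbp (1.57 to 3.53) and Has1, a hyaluronan synthase (1.57 to 2.05). Each rests on few positive spots, 20 to 25 per section for Bglap. Sp7, Dmp1 and Phex had at least 20 positive spots in 1 section each, too few for this.

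Bglap and Dmp1 had 0 UMIs in the spots rich in fast muscle genes in all 4 sections. Those spots held 4.11% to 6.69% of the UMIs of a section, and a count of 0 allows up to 3 UMIs per section, so little can be read from it. Tenocyte-rich spots held 8 of 19 and 11 of 22 Dmp1 UMIs in F592A 1 and F592A 2. In WT 1 and WT 2 they held 15 of 23 and 1 of 6. Their share of all UMIs was 31.3% and 33.1% in F592A, and 34.9% and 24.4% in WT. The Clopper-Pearson intervals of the Dmp1 share covered this in F592A 1 (20.3 to 66.5%) and F592A 2 (28.2 to 71.8%). In WT 1 the interval (42.7 to 83.6%) lay above it. The level of Dmp1 in tenocyte-rich spots was 1.60, 2.02 and 3.50 times the rest in F592A 1, F592A 2 and WT 1. In WT 2 it was 0.62 times. Bglap had 5 of 27 and 10 of 21 UMIs in the tenocyte-rich spots of F592A 1 and F592A 2, and 2 of 11 and 10 of 27 in those of WT 1 and WT 2, so the sections of a group differed in this. Phex had 6 of 13 and 0 of 3 UMIs in the macrophage-rich spots of F592A 1 and F592A 2, and 13 of 41 and 2 of 4 in those of WT 1 and WT 2. Those spots held 28.3% and 27.9% of all UMIs in F592A, and 16.7% and 17.6% in WT. Sp7 had 2 of 7 and 7 of 25 UMIs in the cartilage-rich spots of F592A 1 and F592A 2, and 2 of 13 and 0 of 5 in those of WT 1 and WT 2. The cartilage-rich spots held 12.4% and 15.3% of all UMIs in F592A, and 13.8% and 13.4% in WT. In spots rich in regenerating muscle genes Sp7 had 0 of 7 and 0 of 25 in F592A, and 6 of 13 and 2 of 5 in WT. The 2 UMIs of WT 2 lay in 0.493% of its 203 such spots. Myh3 of that list had 85 and 25 UMIs in F592A 1 and F592A 2, against 7401 and 1407 in WT 1 and WT 2. These spots are thus not like tissue in the groups, and no contrast of Sp7 between groups can be read from them. Bglap3 was separate from Bglap: the spots rich in epidermal and in hair follicle genes held 25 and 21 of its 84 UMIs in F592A 1 and 20 and 24 of 110 in F592A 2, and 11 and 22 of 64 in WT 1 and 9 and 7 of 37 in WT 2.

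Of the 41 spots with Sp7, 12 had Runx2 and 6 had Alpl, and 0 had Bglap, Dmp1 or Phex. Runx2 was in 38 of 78 Bglap spots (48.7%) and 32 of 62 Dmp1 spots (51.6%), and in 58 of 247 Ibsp spots (23.5%) and 104 of 354 Alpl spots (29.4%). Seen from Runx2, these were 2.83%, 2.39%, 4.33% and 7.76% of its 1341 spots. Bglap and Dmp1 were together in 2 spots. At least 2 of Sp7, Ibsp, Bglap, Dmp1 and Phex were found in 5 and 1 spots of F592A 1 and F592A 2, and in 9 and 0 spots of WT 1 and WT 2. Deep spots detect more genes and most Ibsp UMIs lay in 1 patch of WT 1, so neither a shared cell nor an order of the pairs can be read from these shares.

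The wider program of bone was read from 5 lists with 34 genes, of which 27 were tested in whole sections and 26 in tendon-rich spots. In both comparisons 0 were called by edgeR and 0 by DESeq2, while 7 of 27 and 7 of 26 fell under 0.05 before adjustment, against 11.8% and 12.7% of all genes. Of 9 osteoblast transcription factors 7 had a positive and 2 a negative log2 fold change in whole sections, with a median of 0.14, where that of all genes was -0.00034. Dlx5, which acts upstream of Sp7, had 173 and 178 UMIs in F592A against 108 and 85 in WT (0.68 ± 0.22, SE, edgeR adjusted p = 0.341), and its neighbour Dlx6 had 19 and 17 against 4 and 7 (1.48 ± 0.56, adjusted p = 0.401). Both F592A sections lay above both WT sections for Dlx5 and Dlx6, as in 21.7% of all genes. The next in order, Atf4 and Cbfb, the partner of Runx2, had 0.09 and -0.07. In tendon-rich spots the factors were 3 positive and 5 negative with a median of -0.15. Dlx5 had 0.63 there (edgeR adjusted p = 0.414).

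Of 7 tested genes of bone matrix and late osteoblasts, 1 was positive and 6 were negative in whole sections (median -0.30). In tendon-rich spots 3 were positive and 4 negative (median -0.27). Omd, osteomodulin, had 440 and 334 UMIs in F592A 1 and F592A 2, against 599 and 431 in WT 1 and WT 2. Scaled to library size these were 10.1 and 8.75 CPM against 13.8 and 14.8 (-0.59 ± 0.14, SE, edgeR adjusted p = 0.236). Both F592A sections were below both WT sections, as in 22.4% of all genes. In tendon-rich spots Omd had -0.63 ± 0.12 (adjusted p = 0.146), also with both F592A sections below, as in 23.2% of all genes. Sparc, osteonectin, and Ifitm5, a membrane protein of osteoblasts, had -0.33 and -0.32 in whole sections. In tendon-rich spots Col1a1, the main collagen of both tendon and bone, had -0.27, Sparc -0.35 and Bglap3 0.46.

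Of 6 tested mineralization genes 2 were positive and 4 negative in whole sections (median -0.09), and 1 and 5 in tendon-rich spots (median -0.30). Enpp1, which makes the mineral inhibitor pyrophosphate and so opposes Alpl, had 229 and 174 CPM in F592A 1 and F592A 2, against 163 and 158 in WT 1 and WT 2 (0.33 ± 0.15, SE, edgeR adjusted p = 0.480). In tendon-rich spots it had 268 and 243 CPM against 221 and 198 (0.29 ± 0.11, adjusted p = 0.364). Both F592A sections were above both WT sections there, as in 22.9% of all genes. Smpd3, a sphingomyelinase needed for bone mineral, had 0.54 in whole sections but -0.68 in tendon-rich spots. Slc20a1, a phosphate transporter, had -0.24 and -0.43, and Mgp, matrix Gla protein, another inhibitor of mineral, -0.39 and -0.47, neither passing.

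Of the 5 other osteocyte genes 1 could be tested. This was Pdpn, podoplanin, which is also on fibroblasts and lymph vessels, with 6872 and 5014 UMIs in F592A, against 4446 and 3738 in WT (0.33 ± 0.16, SE, edgeR adjusted p = 0.484). Of the 4 genes that couple osteoblasts to osteoclasts, 3 were positive in both comparisons. Tnfrsf11a, the receptor RANK, had 15.3 and 16.3 CPM in F592A against 10.7 and 12.4 CPM in WT (0.45 ± 0.13, adjusted p = 0.304) and 0.59 ± 0.12 in tendon-rich spots (adjusted p = 0.165). Csf1, the growth factor of macrophages and osteoclasts, had 0.34 in both (adjusted p = 0.344 and 0.243). Tnfsf11, the ligand RANKL, had -0.41 and -0.43, and its decoy receptor Tnfrsf11b 0.14 and 0.04. None of these 4 passed.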

How the data were processed

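The authors deposited UMI counts as Space Ranger 1.3.0 wrote them, not normalized, per the file headers. The submitters' processing notes name the genome build mm10 and Seurat 3. The 4 sections held 30154873 to 43957617 UMIs. A minimum of 500 UMIs per spot removed 3 spots each of F592A 1, F592A 2 and WT 2 and 4 of WT 1.

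The section was the replicate. Each section gave 1 sum of counts per gene, from every kept spot or from the 25% ranked highest by tendon fibroblast share. The sums went into edgeR 4.0.16 (quasi-likelihood F test, TMM, filterByExpr) on R 4.3.3, with a Benjamini-Hochberg threshold of 0.05 over all tested genes. The SE of a fold change was taken as its size divided by the root of the F statistic. The fits were tested on simulated counts. DESeq2 1.42.0, other scaling, filters, spot choices and sections left out were alternatives. Spot positions are array rows and columns. Intervals are exact at 95%. Python 3.11.15, numpy 2.4.6, pandas 2.3.3, scipy 1.17.1 and matplotlib 3.10.9 were used.

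The 7 genes, the lists and the tests were chosen with earlier results of these data known. Named were the 7 genes, Bglap2 and Bglap3, up to 4 genes per list by smallest p, and the 5 genes most like one of the 7 that had at least 20 positive spots in 2 or more sections, among genes of at least 10 CPM. Genes named for a window or as defining markers were chosen after their values were seen. Ankh was not among the symbols. A listed gene that this rule would name is not reported here.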

Additional observations from a re-analysis of the deposited data

How the results depend on the processing

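Of 124 alternative values of the log2 fold changes, 114 kept direction and side of the threshold, 8 turned and 2 gained a call. Counted among the 114 were the whole-section DESeq2 values of Sp7 and Phex, which had no adjusted p. With 1 section left out, whole-section values ran from -0.57 (without F592A 2) to 1.43 for Sp7, from -4.39 to 3.43 (without WT 1) for Ibsp, from -0.65 (without WT 1; -0.04 without F592A 1) to 1.21 for Bglap, from -0.060 (without WT 2) to 1.28 for Dmp1 and from -2.79 to 0.49 (without WT 1) for Phex. In tendon-rich spots Bglap ran from -0.74 to 0.70 (without WT 2), and turned to 0.061 when 50% of spots were used. Without the 25% of spots richest in skin genes Ibsp had -1.57, against -3.43 with them. Of the 7 genes 0 to 1 were called with a section left out in both comparisons (Ibsp without WT 2 in both, Runx2 without WT 1 in tendon-rich spots). With no filter 1, Ibsp, was called in tendon-rich spots, and the other settings run, the replicate block included, called 0.

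Calls over all genes numbered 13 in whole sections and 14 in tendon-rich spots. DESeq2 gave 421 and 304, no filter 546 and 853, the replicate block 7 and 1, and sections left out 0 to 390 and 0 to 836. In whole sections RLE scaling gave 5, leaving out the 25% of spots richest in muscle genes 1 and in skin genes 4. In tendon-rich spots taking 10% of spots gave 75 and 50% gave 1. Section numbers did not pair (correlation of deviations -0.17 and -0.08), and the crossed pairing, chosen after seeing the data, gave 189. The cause was not tested. Ranking spots by mean log2 level gave 31.6% for Runx2 in macrophage-rich spots in place of 27.1%, 27.5% for Alpl in endothelium-rich spots in place of 18.5%, and 66.0% for Ibsp of WT 1 in cartilage-rich spots in place of 54.1%. In the main ranking macrophage-rich spots held 16.7% to 28.3% of all UMIs of a section, and endothelium-rich spots 7.78% to 11.6%.

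Sp7, Bglap, Dmp1 and Phex had 3 to 41 UMIs per section, so moderate differences were not detectable at this depth. With 2 sections per group a left-out section leaves 1, assumed to vary like the other group.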
